A study of Homo sapiens with 402 samples.

Results

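DDE, the long-lived breakdown product of the insecticide DDT, was given to MCF10A cells at 4 doses, and the 16 resulting RNA libraries are described here against the 8 control libraries that carry the same plate barcode. These 24 libraries are 24 of the 402 in the series. MCF10A is a non-tumorigenic epithelial line from human breast, wild type by its label and used at passage 105. In the wider study 21 chemicals were tested, with 500 cells per well of a 384-well plate, dosing 24 h after plating and RNA sequencing after 48 h of exposure. The libraries of this comparison were taken by their treatment label and plate barcode.

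Each of the 4 doses, 0.025, 0.25, 2.5 and 25 µM, has 4 libraries, which the labels call biological replicates. The DDE libraries are numbered 1 to 16, with 25 µM at 1 to 4, 2.5 µM at 5 to 8, 0.25 µM at 9 to 12 and 0.025 µM at 13 to 16. The 8 controls are numbered 9 to 16. The DDE libraries are labelled with plate 2250-AT and DMSO, the controls with plate 3153-AT and water, although both share one plate barcode of sequencing run 1. DDE, the plate label and the solvent label therefore cannot be told apart in a comparison with these controls. Contrasts between DDE doses lie within one plate label and one solvent label. They do not lie within one place: 25 and 2.5 µM fill the first set of 8 numbers and 0.25 and 0.025 µM the second, and 25 and 0.25 µM take the first 4 places of their set while 2.5 and 0.025 µM take the last 4. The well behind each number is not given in the labels. Nothing says that the 8 controls came from separate cultures, so p-values measure the spread between these libraries, which may in part be technical.

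DDE dissolves in fat, persists in tissue, and is known for blocking the androgen receptor and for activating the nuclear receptors CAR and PXR in liver. The labels do not name the isomer. Sterols and fatty acids are made by enzymes whose genes are switched on together by the SREBP transcription factors, which cells activate when sterol is scarce. Mammary epithelial cells in culture also carry programs that respond to salt and water stress, to amino acid shortage through the transcription factor ATF4, and to growth factors through the cell cycle. MCF10A has a basal-like character, with abundant KRT5 and KRT6A, the keratins of basal epithelium, and little estrogen receptor.

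Library totals ran from 3.06 to 8.87 M counts (units of 1000000) with a median of 6.42 M, and did not separate DDE from controls (two-sided exact permutation test, p = 0.306). The cells matched their label: KRT5 lay between 2460 and 4870 CPM (counts per 1000000 of a library size scaled by the trimmed mean of M-values) in all 24 libraries, and the estrogen receptor gene ESR1 was at most 2.31 CPM. Of 12 stromal, endothelial and immune markers 4 are listed in the files (COL1A1, DCN, PECAM1 and CD14). Their summed level was 52.6 to 87.8 CPM in the controls and 31.1 to 65.2 CPM in the DDE libraries. The share of counts in ribosomal protein genes averaged 4.48% in controls and 5.04% in DDE libraries (exact permutation p = 0.00552, adjusted p = 0.012 over 6 tests). The mitochondrial share averaged 7.58% and 7.4% (exact permutation p = 0.331), and 7.82% and 7.38% without the end libraries described next (p = 0.00598, adjusted p = 0.012). Their part in the gene results was not tested.

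The libraries numbered 1, 8, 9 and 16, the ends of the 2 sets of 8, stood apart before any contrast was drawn. They are 1 of 4 libraries at each dose and 2 of the 8 controls. The first principal component of log2 CPM held 28.5% of the variance. Controls at places 1 to 8 of their set scored -102.4, -23.2, -5, -2.2, -11, -24.5, -60.2 and -130.8. The 12 DDE libraries away from the ends scored between 25.3 and 44. The 4 at the ends scored -0.4 at 25 µM, -8.5 at 0.25 µM, -29.1 at 2.5 µM and -48.1 at 0.025 µM, below every other DDE library. Place in the set thus moved the profile in the same direction as the control label did. Each result below is given for all 24 libraries and for the 18 left when the end libraries (12 DDE, 6 controls) are set aside, called interior libraries here.

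**Figure D1:**
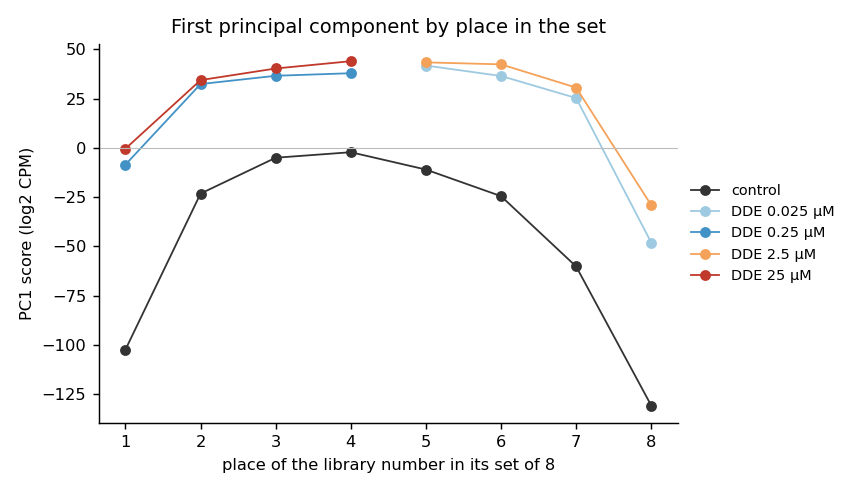
First principal component score of log2 CPM (vertical axis, no unit) against the place of each library number in its set of 8 (horizontal axis), 1 point per library and 1 colour per group. Interior DDE libraries lie between 25.3 and 44, and the control series falls from about its middle to -102.4 at place 1 and -130.8 at place 8.

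At 25 µM, 1082 of 13921 genes differed from controls when all 24 libraries were fitted (7.77% of genes tested, with 3.56% or 495 higher and 4.22% or 587 lower), and 2665 of 13862 did among the interior libraries (19.2%, with 9.59% or 1329 higher and 9.64% or 1336 lower). Calls here and below are edgeR quasi-likelihood tests with Benjamini-Hochberg adjusted p under 0.05. Of the 1082 genes, 1004 were called in both fits, 92.8% of the first set and 37.7% of the second, each in the same direction. At 2.5 µM the counts were 69 (0.496%) and 2883 (20.8%), at 0.25 µM 3 (0.0216%) and 2441 (17.6%), and at 0.025 µM 1 (0.00718%) and 2072 (14.9%). For the mean of the 4 doses they were 3248 (23.3%) and 4519 (32.6%). Among interior libraries 1252 genes were called at each of the 4 doses, 620 higher and 632 lower, with no gene changing direction. The 4 contrasts share their controls, so this count does not stand for 4 separate tests. The ends compared with the interior libraries, with dose held constant, differed in 4466 genes (32.1%, 17.2% higher and 14.8% lower). With all 24 libraries the counts hung on single libraries: the 25 µM count was 8, 5 or 6 without the interior 25 µM library 2, 3 or 4, 271 without control 15, 383 without control 9, 529 without control 16, 698 without 0.25 µM library 10, 697 without 2.5 µM library 7, 1701 without control 12 and 1659 without 0.025 µM library 16. The 69 genes at 2.5 µM became 1949 without its end library 8, 601 without 0.025 µM library 16, 597 without control 12 and 241 without control 11, and 2 to 7 when any other single library was left out except 0.25 µM library 9 and 25 µM library 1, with a median of 4 over the 24 fits. The 3 at 0.25 µM became 949 without its end library 9, 1136 without 0.025 µM library 16, 1134 without control 12, 892 without 2.5 µM library 8 and 776 without control 11, and the 1 at 0.025 µM became 1097 without its end library 16. The medians over the 24 fits at these doses were 1 and 0. The count for the mean of the doses was 2147 without control 15. In the interior the 25 µM count was 1703 or 1730 without library 3 or 4, the 2.5 µM count 1730 without library 5, the 0.25 µM count 1499 or 1520 without library 11 or 12, and the 0.025 µM count 1138 or 1002 without library 13 or 14.

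Among the 12 interior DDE libraries SCD had the smallest p of all genes for a trend with dose, and 3 other genes of fat and sterol synthesis, FASN, DHCR7 and IDI1, were among the 26 called. SCD is stearoyl-CoA desaturase, which makes monounsaturated fatty acids. FASN builds the fatty acid chain, and DHCR7 and IDI1 act late and early in sterol synthesis. The promoters of SCD and of MSMO1, a sterol gene not called in the trend (edgeR, adjusted p = 0.158), are shown as examples. Both were lower at 25 µM than in controls in each fit, as were other lipid genes. Capitals mark the motif CCAAT, the binding letters of the factor NF-Y, a known partner of SREBP, on either strand. The same stretch held 1 match each in INSIG1, FDPS, LSS and HMGCS1, fewer than in the 2 shown. Both sequences are from RefSeq on GRCh38.p14, read 5′ to 3′ on the gene's strand and stopping at the first annotated exon.
SCD, chr10:100346983-100347123, plus strand: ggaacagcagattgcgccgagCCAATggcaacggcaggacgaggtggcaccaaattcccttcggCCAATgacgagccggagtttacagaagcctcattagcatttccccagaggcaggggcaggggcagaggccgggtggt
MSMO1, chr4:165327419-165327622, plus strand: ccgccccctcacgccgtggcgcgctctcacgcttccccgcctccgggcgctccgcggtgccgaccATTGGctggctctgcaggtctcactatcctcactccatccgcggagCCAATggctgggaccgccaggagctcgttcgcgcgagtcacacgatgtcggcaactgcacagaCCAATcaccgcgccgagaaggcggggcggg
MSMO1 encodes sterol C4-methyl oxidase. CCAAT occurred in the 250 bases before the start in 15 of the 18 sterol genes with a promoter in the table (83.3%) and in 5 of 11 fatty acid genes. It occurred in 35.4% of the 10153 tested genes with a promoter and in 33% of all 27305 promoters. The sterol regulatory element, searched as TCACNCCAC on both strands, was found in 1 of the 18 (SREBF2), beside 0.827% of tested genes. These matches describe letters and were not tested as binding sites.

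SCD, at chr10:100347124-100364834, lay between 229 and 686 CPM in the 8 controls, with a median of 650 CPM and the lowest value in end control 9. At 0.025 µM the libraries held 426, 414, 608 and, at the end of the set, 774 CPM. At 0.25 µM they held 663 at the end, then 441, 399 and 437 CPM. At 2.5 µM they held 353, 337, 353 and, at the end, 611 CPM. At 25 µM they held 323 at the end, then 265, 223 and 210 CPM. The interior libraries at 2.5 and 25 µM lay below all 6 interior controls and below every interior library of the 2 lower doses, and the end libraries were the highest of their dose throughout. Against controls the log2 difference at 25 µM was -1.20 (SE 0.24, adjusted p = 0.0211, n = 4 and 8) with all libraries and -1.45 (SE 0.11, adjusted p = 1.07e-11, n = 3 and 6) in the interior. The interior differences at 2.5, 0.25 and 0.025 µM were -0.88, -0.58 and -0.41, each called.

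**Figure D2:**
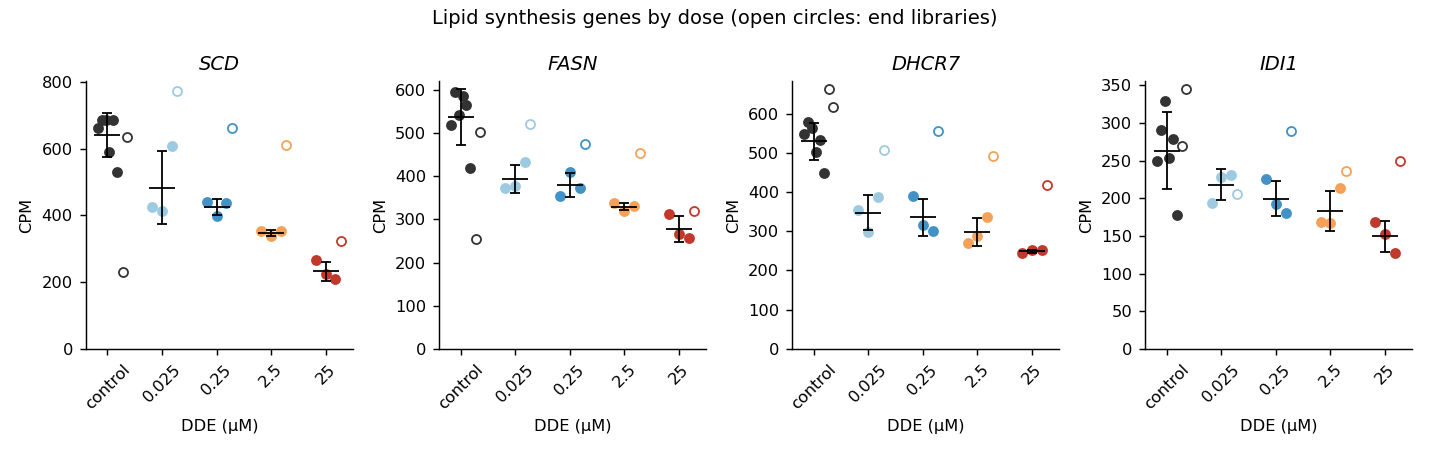
CPM (vertical axes) of SCD, FASN, DHCR7 and IDI1 in controls and at each DDE dose in µM (horizontal axes). Filled points are interior libraries, open circles end libraries, and bars the mean ± SD of the interior libraries. Interior SCD falls from 640 ± 65.8 CPM in controls to 232 ± 28.6 CPM at 25 µM.

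The linear trend over the 4 doses, the test of any difference among them and the contrast of 25 with 0.025 µM called 0 genes each when all 24 libraries were fitted by edgeR. There 522, 365 and 544 genes had an unadjusted p under 0.05, and DESeq2 also called 0. SCD had a slope of -0.36 in log2 per 10-fold dose (SE 0.08) with an adjusted p of 0.999 there. Without the end libraries each of the 3 tests called 1 gene (0.00721%), SCD, with a slope of -0.34 (adjusted p = 4.43e-06). The dose contrasts were then fitted in the DDE libraries alone, a choice made after the data were seen, because the controls differ strongly among themselves. All 16 DDE libraries again gave 0 genes in each test by edgeR, with 625, 474 and 667 at an unadjusted p under 0.05. DESeq2 was not run on this subset. The 12 interior DDE libraries gave 26 genes with a trend (0.199% of 13062, 14 or 0.107% with a positive slope and 12 or 0.0919% with a negative one), 9 with any difference among doses (0.0689%) and 19 between 25 and 0.025 µM (0.145%).

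Per 10-fold dose in these 12 libraries, SCD fell by 0.34 (SE 0.03, adjusted p = 3.29e-12), FASN by 0.17 (SE 0.03, adjusted p = 0.000586), DHCR7 by 0.16 (SE 0.03, adjusted p = 0.00761) and IDI1 by 0.17 (SE 0.04, adjusted p = 0.0118) on the log2 scale. SCD and FASN were called in each of 12 fits that left out 1 of the 12 libraries, DHCR7 in 10 and IDI1 in 8. FASN held 378, 373 and 432 CPM at 0.025 µM in the interior, 355, 410 and 372 at 0.25 µM, 337, 320 and 332 at 2.5 µM and 313, 266 and 256 at 25 µM. The 25 µM values lie below those of every other dose. DHCR7 held 245, 251 and 251 CPM at 25 µM beside 269 to 337 at 2.5 µM, 301 to 389 at 0.25 µM and 299 to 387 at 0.025 µM. IDI1 held 169, 152 and 127 CPM at 25 µM and 194, 229 and 231 CPM at 0.025 µM, with the doses between overlapping their neighbours. All these levels are of interior libraries. In the 25 µM end library, of 8.05 M counts, DHCR7 (3335 counts) lay above every interior DDE library in CPM. There IDI1 (1988 counts) lay above all 4 libraries at 0.025 µM, so the fall did not extend to that library. Leaving out 1 library moved the count of 26 trend genes to between 3 and 49: it was 3 without 0.025 µM library 15 or 25 µM library 4, 10 without 25 µM library 3, 17 without 0.025 µM library 14 and 49 without 0.025 µM library 13. The 19 genes between 25 and 0.025 µM became 1 without 0.025 µM library 15 or 25 µM library 3 or 4, and 31 without 0.025 µM library 13. The 9 genes with any difference became 4 or 5 without 0.025 µM library 15, 0.25 µM library 10 or 25 µM library 3 or 4, and 15, 19 and 28 without 2.5 µM library 7, 2.5 µM library 5 and 0.025 µM library 13.

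Pairs of doses that share a set or a place can be set beside each other. Doses 25 and 2.5 µM share the first set of numbers, and there 1 of 13062 genes was called (0.00766%), SCD, lower at 25 µM by 0.57 in log2 (adjusted p = 0.00332). Doses 25 and 0.25 µM share the first 4 places of a set: 3 genes were called (0.023%), among them SCD, lower at 25 µM by 0.86 (adjusted p = 1.67e-08), and FASN, by 0.44 (adjusted p = 0.0249). Doses 2.5 and 0.025 µM share the last 4 places: 4 genes were called (0.0306%), with SCD lower at 2.5 µM by 0.47 (adjusted p = 0.0238). The 2 lowest doses, in the second set, gave 0 calls by edgeR with 704 genes at an unadjusted p under 0.05, and an SCD difference of -0.18 (adjusted p = 0.907). SCD differed between the doses of the first set and between doses at the same places. It did not differ detectably between the doses of the second set. SCD had been singled out by its trend in these same interior DDE libraries, so the pairs are not separate tests of it. Doses that share a set differ in place, and doses that share places differ in set. The part of set or place in the SCD differences was not tested.

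The sterol list holds 24 tested genes of synthesis and uptake. At 25 µM 12 were lower and 0 higher with all libraries, and 18 were lower and 0 higher in the interior, with a median log2 difference of -0.58 beside -0.01 for all genes. The interior counts were 15 lower and 1 higher at 2.5 µM (median -0.48), 8 and 0 at 0.25 µM (-0.29) and 9 and 1 at 0.025 µM (-0.31). Over all genes tested, the share called lower at those doses was 10.7%, 9.09% and 7.68%, and the share called higher 10.1%, 8.52% and 7.27%. At 25 µM the share called lower was 4.22% with all libraries and 9.64% in the interior. MVD, which decarboxylates mevalonate, LSS, which closes the sterol ring, and the membrane protein INSIG1, which holds SREBP back, differed by -1.15, -1.08 and -0.91 at 25 µM in the interior, and TM7SF2, a sterol reductase, by -1.75. HMGCS1, a synthase early in the pathway, stood the other way at 0.42 and was not called (adjusted p = 0.0988).

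Among 13 fatty acid genes 7 were lower and 0 higher at 25 µM with all libraries, and 9 lower and 1 higher in the interior (median -0.60). Of all genes, 4.22% and 9.64% were lower in these 2 fits. ACSS2, which makes acetyl-CoA from acetate, FADS2, a desaturase of polyunsaturated chains, and ME1, a source of NADPH, differed by -1.22, -1.12 and -0.85. FABP5, a carrier of fatty acids in skin and breast epithelium, was the one gene of the list that was higher, by 1.03. In the 12 interior DDE libraries alone the slope with dose was below 0 for 23 of 24 sterol genes (median -0.101) and 12 of 13 fatty acid genes (median -0.074), beside 6565 of 13062 genes overall (median -0.001). Only 2 sterol genes and 2 fatty acid genes were called there, the 4 named above. Slopes were also one-sided in lists described further on. Below 0 were 5 of 6 osmotic genes (median -0.072), with 2 called falling, and 2 of 26 replication genes (median 0.033), with 1 called rising. In the end libraries, against the others, 8 of 24 sterol genes were higher and 1 lower (median 0.02), and 3 of 13 fatty acid genes were higher and 3 lower (median 0.09), beside 17.2% of all genes higher and 14.8% lower. This contrast pools controls and DDE libraries. SCD was lowest of the controls in end control 9 and highest of each dose in the DDE end libraries. Medians near 0 therefore do not show that place left these lists unmoved. DMSO against water controls of another plate, described further on, had medians of 0.05 and -0.04.

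Other genes called in the trend of the 12 interior DDE libraries included, falling per 10-fold dose, KRT5 by 0.10 and KRT14 by 0.28, the paired basal keratins, CLTC, the clathrin heavy chain, by 0.22, FGFBP1, a carrier of fibroblast growth factors, by 0.27, and the amino acid transporter SLC38A2 by 0.14. SLC38A2 belongs to the osmotic list described next. So does AKR1B1, which fell by 0.19 (adjusted p = 0.0249) and was called in 7 of 12 fits with a library left out. TCOF1, needed for ribosomal RNA synthesis, had a positive slope of 0.18 (adjusted p = 0.000586) and was called in 12 of 12 fits with a library left out. LMNB2, a nuclear lamin, rose by 0.19 per 10-fold dose and CDT1, a licensing factor of DNA replication, by 0.19. The place of KRT14 in this list has a value beside it: KRT14 was also higher in the end libraries (log2 2.16, adjusted p = 2.04e-09) and graded within the sets, and the part of place in its slope was not tested.

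In the osmotic response list, AKR1B1, SLC5A3 and SLC6A12 were lower in interior DDE libraries than in every control, and highest in the end libraries of controls and of each dose. These genes import or make the small solutes that balance salt outside the cell, under the transcription factor NFAT5. AKR1B1, aldose reductase, at chr7:134442350-134459284, makes sorbitol. It lay between 2460 and 12600 CPM in the 8 controls with a median of 4140 CPM, highest at both ends. At 25 µM the libraries held 1680 at the end, then 427, 369 and 345 CPM. At 0.025 µM they held 401, 509 and 798 CPM and 5370 CPM at the end. Every interior DDE library, at 339 to 798 CPM, lay below all controls, while the end libraries of 0.025, 0.25 and 2.5 µM, at 5370, 3110 and 4080 CPM, lay within the control range. The difference at 25 µM was -3.03 (SE 0.84, adjusted p = 0.0346) with all libraries and -3.35 (SE 0.24, adjusted p = 2.06e-12) in the interior.

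SLC5A3, the inositol importer, lies at chr21:34073570-34106262, where MRPS6 overlaps on the same strand. It held 34.4 to 659 CPM in controls with a median of 87.9 CPM. At 25 µM it held 38.7 at the end, then 17.5, 19.6 and 15 CPM. All 12 interior DDE libraries, at 8.17 to 21.1 CPM, lay below the lowest control. The difference was -3.15 with all libraries (adjusted p = 0.0309) and -2.19 in the interior (adjusted p = 3.46e-05). SLC6A12, the betaine importer, was at 759 and 774 CPM in the 2 end controls, at 9.28 to 201 CPM in the other 6 and at 0 to 1.04 CPM in the 12 interior DDE libraries. With all libraries its difference at 25 µM was -7.10 (SE 1.64, adjusted p = 0.0245), a value fitted on few DDE counts. Over the 7 genes of this list, which was drawn up after values had been seen, 5 were lower at 25 µM with all libraries and 6 in the interior (median -1.95). The shares of all genes called lower were 4.22% and 9.64%. With dose held constant, all 7 were called higher in the end libraries than in the others (median 1.67), beside 17.2% of all genes. Among the controls alone the taurine importer SLC6A6 was not higher at the ends, at 70.8 and 98.4 CPM in the 2 end controls and 94.3 to 111 CPM in the other 6. NFAT5 itself was at 40.6 CPM in end control 9, within the 24.8 to 45 CPM of the other 6.

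**Figure D3:**
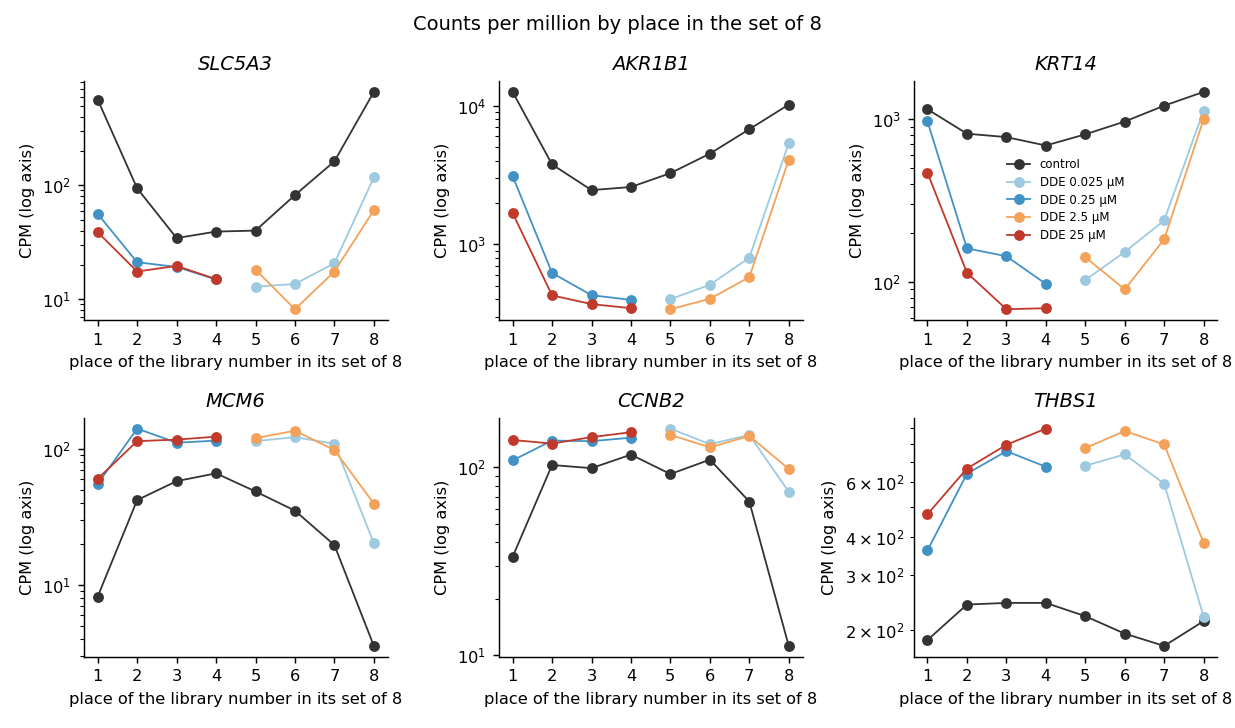
CPM (vertical axes, log scale) of SLC5A3, AKR1B1, KRT14, MCM6, CCNB2 and THBS1 against place in the set of 8, with 1 line per group. The control line lies above the interior DDE points in SLC5A3, AKR1B1 and KRT14 and below them in MCM6 and THBS1, and most lines bend at places 1 and 8.

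The ATF4 list, which covers the response to amino acid shortage and endoplasmic reticulum stress, followed the same places. At 25 µM 2 of 12 genes were lower with all libraries (ATF3 and TRIB3) and 9 in the interior (median -2.19), with 0 higher in either. Beside them stand 4.22% and 9.64% of all genes called lower. CHAC1, which breaks down glutathione, held 35.8 to 128 CPM in controls with a median of 61.4 CPM. Interior DDE libraries held 0.149 to 11.1 CPM, below every control, and the end libraries held 107 CPM at 0.025 µM, 35.6 at 0.25 µM, 104 at 2.5 µM and 44.5 at 25 µM. TRIB3, a pseudokinase that dampens ATF4, held 311 to 1880 CPM in controls and 135 to 169 CPM in interior DDE libraries. In the end libraries 11 of the 12 genes were higher than in the others (median 1.42), beside 17.2% of all genes. CHAC1 at 25 µM was lower by 3.73 in the interior and was not called with all libraries (adjusted p = 0.14).

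Genes of DNA replication and mitosis were higher in the DDE libraries. The promoters of MCM6, a subunit of the replicative helicase, and CCNB2, a mitotic cyclin, are shown because these 2 lists moved together; capitals mark TTTNNCGC (the E2F motif, on both strands, 4 overlapping matches at 2 places) in MCM6 and CCAAT in CCNB2.
MCM6, chr2:135876444-135876693, minus strand: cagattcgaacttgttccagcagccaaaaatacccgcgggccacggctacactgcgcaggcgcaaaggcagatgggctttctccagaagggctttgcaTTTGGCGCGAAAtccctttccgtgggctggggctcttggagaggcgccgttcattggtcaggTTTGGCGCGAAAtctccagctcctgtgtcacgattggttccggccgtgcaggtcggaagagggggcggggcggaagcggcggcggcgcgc
CCNB2, chr15:59104896-59105077, plus strand: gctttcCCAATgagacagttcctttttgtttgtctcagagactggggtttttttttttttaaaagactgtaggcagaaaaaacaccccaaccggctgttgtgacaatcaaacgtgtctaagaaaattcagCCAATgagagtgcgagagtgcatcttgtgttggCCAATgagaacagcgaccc
The E2F letters occurred in 10 of 22 replication promoters (45.5%), beside 9.33% of tested genes and 5.93% of all promoters. CCAAT occurred in 18 of 20 mitosis promoters (90%), counted over the 250 bases before the start. Another mitotic cyclin, CCNB1, is among these 18, though the 110 bases that stop at its first annotated exon held 0 matches.

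MCM6 held 3.55 to 66.1 CPM in controls with a median of 38.6 CPM, lowest at the ends. At 25 µM it held 60.2 at the end, then 114, 117 and 123 CPM, and at 0.025 µM 114, 122, 109 and, at the end, 20.2 CPM. The 12 interior DDE libraries, at 98.1 to 141 CPM, all lay above the highest control. The difference at 25 µM was 1.52 with all libraries (SE 0.43, adjusted p = 0.0363) and 1.44 in the interior (SE 0.18, adjusted p = 4.79e-07). RRM2, a subunit of ribonucleotide reductase, held 18.9 to 362 CPM in controls and 510 to 709 CPM in interior DDE libraries. The replication list had 16 of 26 genes higher at 25 µM with all libraries and 23 in the interior (median 0.90), with 0 lower. Of all genes, 3.56% and 9.59% were called higher. UNG, which removes uracil from DNA, and GINS2, a helicase partner, were higher by 1.25 and 1.45. In the interior 19, 22 and 22 of the 26 were higher at 0.025, 0.25 and 2.5 µM, beside 7.27%, 8.52% and 10.1% of all genes.

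CCNB2 held 11.2 to 117 CPM in controls and 128 to 161 CPM in interior DDE libraries, with no overlap. In the mitosis list 7 of 24 genes were higher at 25 µM with all libraries and 23 in the interior (median 0.64), with 0 lower. The shares of all genes called higher were 3.56% and 9.59%. HMMR, which binds hyaluronan and spindle microtubules, was higher by 1.17, and MKI67, the proliferation marker, by 0.71. The size differed little between doses: the interior medians ran from 0.61 to 0.68. The end libraries differed from the rest the other way, with 24 of 26 replication genes (median -0.92) and 23 of 24 mitosis genes (median -0.81) lower, beside 14.8% of all genes. In these bulk libraries a larger share of dividing cells and more of these RNAs per cell cannot be told apart.

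THBS1, the secreted matrix protein thrombospondin-1, was the one gene called at all 4 doses with all libraries. It held 177 to 244 CPM in the 8 controls with a median of 217 CPM. At 25 µM the libraries held 473 at the end, then 665, 794 and 896 CPM. At 2.5 µM they held 775, 880 and 796 CPM and 382 CPM at the end. At 0.25 µM they held 361 at the end, then 640, 757 and 674 CPM. At 0.025 µM they held 679, 739 and 594 CPM and 220 CPM at the end. The end library of 0.025 µM was the only DDE library within the control range. The differences from 25 down to 0.025 µM were 1.72, 1.72, 1.5 and 1.37 with all libraries, with adjusted p of 0.000779, 0.000748, 0.00877 and 0.0396, and 1.84, 1.90, 1.66 and 1.61 in the interior. Its slope with dose was 0.12 with all libraries (adjusted p = 1). DMSO and water controls of the other plate did not differ detectably (-0.15, SE 0.11, adjusted p = 0.462). With all libraries, the 0.025 µM call of THBS1 was lost when any 1 of the 8 controls was left out. The median count at that dose over the 24 fits was 0. At 0.25 µM the 3 called genes, THBS1 among them, became 0 without its library 10, 11 or 12. THBS1 lies at chr15:39581079-39599466, where FSIP1 overlaps on the opposite strand, and strand use in counting is not given in the sources used here.

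SPARC, another matrix protein, and FOSL1, an AP-1 subunit, were also higher at 25 µM in both fits, by 1.36 and 1.16 with all libraries. AREG, amphiregulin, a ligand of the epidermal growth factor receptor, was singled out after its values were seen because its pooled end difference was near 0. It held 341 to 559 CPM in controls with a median of 460 CPM and 672 to 789 CPM at 25 µM, with no overlap. At 0.025, 0.25 and 2.5 µM it held 582 to 668, 535 to 631 and 670 to 846 CPM. The mean difference over doses was 0.55 with all libraries (adjusted p = 0.000204), and the end libraries differed from the others by -0.02 (adjusted p = 0.838). That pooled value averages opposite shifts. The end library was lowest at 0.25 µM (535 CPM), as was end control 9 among controls (341 CPM). It was highest at 2.5 µM (846 CPM) and at 25 µM (789 CPM). Control 16 and the end library of 0.025 µM lay within the range of their groups. EREG, a ligand of the same receptor, stood the other way, lower by 2.26 at 25 µM (adjusted p = 0.0346), and was higher in the end libraries by 1.84.

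KRT14 and the AKR1C genes were lower in interior DDE libraries than in controls, and they also differed between the DMSO and water controls of another plate. Other keratins did not all do so: KRT8 held 333 to 458 CPM in controls and 341 to 484 CPM in DDE libraries. On plate 3240-AT the series has 12 DMSO and 4 water controls, and 1009 of 14037 genes differed between them (7.19%, 3.82% higher and 3.37% lower with DMSO). That count was 494, 609, 690 or 669 when water control 39, 40, 47 or 48 was left out. KRT14 held 689 to 1470 CPM in the controls of the DDE barcode, with a median of 890 CPM. At 25 µM it held 468 at the end, then 114, 68.1 and 69.1 CPM, and at 0.025 µM 103, 153 and 239 CPM and 1130 CPM at the end. Interior DDE libraries, at 68.1 to 239 CPM, lay below all controls, and the end libraries of the 3 lower doses lay within the control range. The difference at 25 µM was -2.44 with all libraries (adjusted p = 0.043) and -3.37 in the interior (SE 0.22, adjusted p = 9.53e-14). On plate 3240-AT KRT14 was lower with DMSO than with water by 2.48 (SE 0.20, adjusted p = 7.5e-12).

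AKR1C2, which reduces steroid hormones, held 387 to 1250 CPM in controls and 52.7 to 152 CPM in interior DDE libraries, with 370 to 616 CPM in the 4 end libraries. It differed by -2.17 at 25 µM with all libraries (adjusted p = 0.0461) and by -2.86 in the interior, and by -1.94 between DMSO and water (adjusted p = 7.96e-19). AKR1C1 and AKR1C3 moved alike, by -2.78 and -2.36 in the interior and by -1.55 and -1.03 between solvents, but the family shares near-identical sequence and its counts may be split. The 8 genes with the smallest p between solvents were all lower with DMSO, and 6 of them were also lower at 25 µM in the interior: KRT14, the 3 AKR1C genes, KRT17 and S100A14. KRT17, another keratin, differed by -1.06 between solvents and by -0.80 at 25 µM in the interior (adjusted p = 7.51e-06), and was not called with all libraries (adjusted p = 0.0755). It held 376 to 700 CPM in interior DDE libraries and 739 to 877 CPM in interior controls. S100A14, a calcium-binding protein, differed by -1.45 between solvents, and by -0.63 in the interior and -0.52 with all libraries at 25 µM (adjusted p = 1.1e-05 and 0.0308). S100A2 and ARHGDIB, the other two (-1.81 and -1.02 between solvents), showed no detectable difference at 25 µM (interior 0.18 and -0.15, adjusted p = 0.331 and 0.646). SCD, THBS1 and MCM6 differed between solvents by -0.04, -0.15 and -0.01, none of them called, and AKR1B1 by -0.55 (adjusted p = 4.6e-06). Of the 1000 solvent genes also tested here, 319 (31.9%) had the same sign in the interior mean of the 4 doses, beside 41.4% of all genes tested on both. Of the 549 called there, 158 had the same direction and 391 the opposite one. The 3240-AT libraries were scaled and fitted separately, and whether their solvents match those of the DDE plate is not given in the labels. The values given as between solvents also compare different places in the sets, as stated above.

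The epithelial and basal list had 8 of 12 genes lower and 0 higher at 25 µM in the interior (median -0.68), among them CDH1, the E-cadherin of cell junctions, by 1.03, EGFR by 0.93 and LAMB3, a laminin chain, by 1.37. With all libraries 1 was called, KRT14. Of all genes, 9.64% were called lower in the interior and 4.22% with all libraries. Between DMSO and water 6 of 12 were lower and 0 higher (median -0.58), beside 3.37% of all genes lower.

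Lists for receptor pathways, which cover those that DDE is known to act on, held few measured genes. Their counts stand beside 9.59% of all genes called higher and 9.64% called lower at 25 µM in the interior, 19.2% in either direction. Of 17 listed CAR and PXR genes 5 were tested in the interior and 1 was called at 25 µM, the electron donor POR, lower by 0.36, a share near that of all genes. Of 10 listed androgen receptor genes 6 were tested, and 2 were lower (ZBTB16 by 0.65 and NDRG1 by 0.91), while FKBP5, a steroid-induced chaperone, stood at 0.06 (adjusted p = 0.67). Of 9 estrogen-related genes tested 3 were higher and 2 lower, with CCND1, a G1 cyclin, at 0.48 and GREB1 at -1.21. In the AhR list 4 of 8 were lower and 0 higher. CYP1A1, its standard target, held 11.9 to 115 CPM in controls and 3.19 to 16.6 CPM in interior DDE libraries, which overlap, and was lower at 25 µM by 1.99 in the interior and by 2.28 with all libraries. CYP1A1 was also higher in end libraries by 1.80.

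Among the other lists at 25 µM in the interior, where 9.59% of all genes were higher and 9.64% lower, 11 of 20 NRF2 genes were lower and 1 higher (median -0.42), 7 of 11 heat shock genes were higher and 0 lower (median 0.59), and 38 of 75 ribosomal protein genes were higher and 0 lower (median 0.27). HSPD1, a mitochondrial chaperone, was higher by 0.64, and FTH1, ferritin heavy chain, lower by 0.74. Of 18 p53 genes 1 was higher and 4 lower (median -0.17). In the end libraries 9 of 20 NRF2 genes were higher and 1 lower (median 0.25), 2 of 11 heat shock genes higher and 6 lower (median -0.54), 36 of 75 ribosomal protein genes lower and 0 higher (median -0.19) and 5 of 18 p53 genes higher and 0 lower (median 0.08). With DMSO against water on plate 3240-AT, 6 of 20 NRF2 genes, 2 of 11 heat shock genes, 4 of 75 ribosomal protein genes and 2 of 18 p53 genes were lower and 0 higher, beside 3.37% of all genes lower. With all libraries 3 of 20, 1 of 11 and 1 of 75 genes were called at 25 µM in the direction given for the first 3 of these lists.

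**Figure D4:**
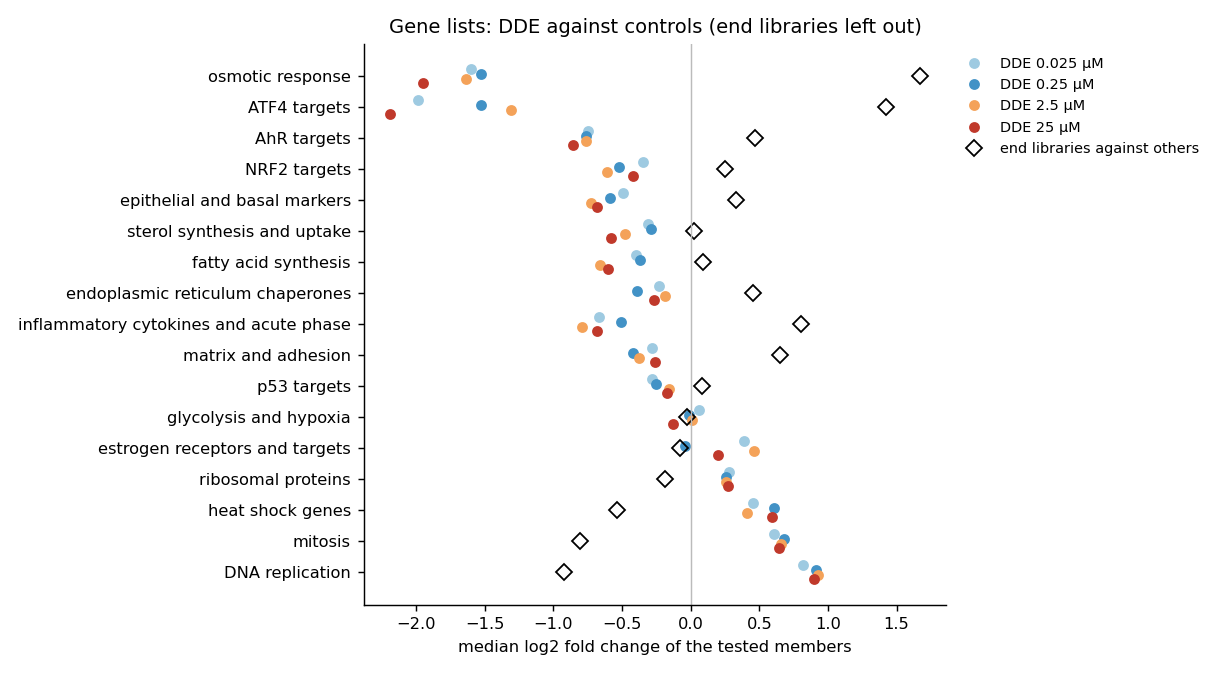
Median log2 difference of each list's tested genes (horizontal axis) for the 4 DDE doses against controls in the interior libraries (filled points) and for end against other libraries (open diamonds). Osmotic and ATF4 genes lie lowest with DDE and highest at the ends, and replication and mitosis genes the reverse. The sterol and fatty acid lists lie below 0 with DDE, with end medians of 0.02 and 0.09. The end medians pool controls and DDE libraries, in which a gene such as SCD can shift in opposite directions.

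The remaining genes with large differences at 25 µM followed the same 2 groups. Lower in both fits were IGFL2-AS1, WFDC21P, ARG2, MRPS24, LURAP1L and ALPP, by 2.93 to 3.46 with all libraries, and each was higher in the end libraries, by 1.77 to 2.86. ARG2 is a mitochondrial arginase and ALPP the placental alkaline phosphatase. Reads of MRPS24 may also come from the overlapping readthrough gene, and those of IGFL2-AS1 from genes on the other strand. Higher in both fits were PIF1 and DNA2, DNA helicases, CDCA7, CDCA4 and H4C3, a histone gene, and the noncoding SNHG26 and MIR4435-2HG, by 1.41 to 1.84 with all libraries. Each was lower in the end libraries, by 1.01 to 1.68. AL137800.1, a symbol not found in the annotation used, was lower over the mean of the doses by 4.63 and higher in the end libraries by 5.28.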

How the data were processed

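The deposited files hold raw counts per gene symbol, 1 file per library. Per the submitters' processing notes, the tools were FastQC, MultiQC, STAR and featureCounts on GRCh38. Neither versions nor the strand setting were given. The 24 libraries share 15081 symbols. The members and gene lists were chosen with earlier results of these data known. Counts were filtered with edgeR's filterByExpr (10 per library, 15 in total), scaled by TMM and fitted with quasi-likelihood tests (R 4.3.3, edgeR 4.0.16, limma 3.58.1), with one spread over all groups. The threshold was an adjusted p of 0.05. Named genes were the 10 highest and 10 lowest at 25 µM called in both fits with average log2 CPM of at least 4, the 6 and 6 for the mean of doses, the genes called in dose tests, 8 solvent genes and list members. Fits in DDE libraries alone were added after the data were seen. No library duplicated another. The 25 µM contrast was checked on simulated counts with known changes. With 24 libraries it recovered 9% of 2-fold and 66% of 4-fold changes. With 18 libraries it recovered 60% and 99%, so few calls with all libraries do not show that few genes differ. The simulated counts were drawn independently for each gene and library, with no end libraries that shift together. These rates therefore need not hold in the real data. Loci are from GENCODE v29. DESeq2 1.42.0 and the other alternatives are reported at the end.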

Additional observations from a re-analysis of the deposited data

Results flagged for a closer look

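Within each group of 4 or 8 libraries, 175 sets of values (the named genes and 4 library measures) were examined for a single library far from the others on Dixon's test, which chance passes in about 1 in 20 groups. In 27 of them a library stood apart, and each of the 27 was a library at the end of a set of 8. Among controls, library 16 was lowest for H4C3 at 9.76 CPM and highest for KRT17 at 1820 CPM, and library 9 was lowest for SCD at 229 CPM.

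At 0.025 µM, library 16 was highest for SLC6A12 at 111 CPM, ATF3 at 101 CPM, ARG2 at 37.1 CPM and LURAP1L at 67 CPM. It was lowest for MCM6 at 20.2 CPM, RRM2 at 156 CPM, S100A2 at 718 CPM and ARHGDIB at 23 CPM. At 0.25 µM, library 9 was highest for ATF3 at 15.6 CPM and AL137800.1 at 235 CPM, and lowest for CDCA7 at 19.3 CPM, RRM2 at 366 CPM and the first principal component at -8.5. At 2.5 µM, library 8 was highest for SLC6A12 at 28.4 CPM and SCD at 611 CPM, and lowest for THBS1 at 382 CPM, H4C3 at 61.2 CPM and RRM2 at 228 CPM. At 25 µM, library 1 was highest for ATF3 at 21.6 CPM, AKR1B1 at 1680 CPM and AL137800.1 at 121 CPM, and lowest for MCM6 at 60.2 CPM, DNA2 at 12.1 CPM and CDCA4 at 77.6 CPM. SCD was lowest in a control end library and highest in the DDE end library at 2.5 µM, while RRM2 was lowest in each of the 3 end libraries in which it stood apart. Why the ends differ was not tested.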

How the results depend on the processing

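Counts of genes called are given in the order 25, 2.5, 0.25 and 0.025 µM, then the mean of the doses. With all 24 libraries they were 1082, 69, 3, 1 and 3248. Without the end libraries they were 2665, 2883, 2441, 2072 and 4519, and with a term for the end of a set 3477, 2755, 2833, 1691 and 4853. With DESeq2 they were 1612, 645, 1035, 89 and 3477. With RLE size factors they were 1098, 67, 3, 0 and 3331, without a filter on low counts 930, 5, 3, 1 and 3213, and with libraries thinned to the smallest total 1056, 28, 149, 1 and 3054. Fitting each dose alone with the controls gave 695, 2, 159 and 0, and using only the 4 controls at the same places of their set 5, 1, 0 and 0. The 3 dose tests gave 0 in the settings with the controls, except 1 each without the end libraries. In the 12 interior DDE libraries alone they gave 26, 9 and 19, and with 1 of these left out 3 to 49, 4 to 28 and 1 to 31.

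A replicate block on the place in the set of 8 gave 1661, 2711, 1161, 1836 and 4646, and 0 in each dose test. Libraries with the same number were not treated as pairs. The deviations of the 8 pairs with the same number correlated between -0.08 and 0.33. In 2 of 8 the value was over 0.1, and both were end numbers, 9 at 0.14 and 16 at 0.33. Of 24 pairs at the same place in a set, 9 were over 0.1 (-0.1 to 0.51), beside 22 of 200 other pairs. Leaving out 1 library gave ranges of 5 to 1701, 2 to 1949, 0 to 1136, 0 to 1097 and 2147 to 4229, and 0 for the dose tests. The ends differed from the others in 3484 to 4778 genes. The solvents differed in 494 to 690 genes when 1 of the 4 water controls was left out; the 12 DMSO controls were not left out in turn. Without the end libraries the ranges were 1703 to 2962, 1730 to 3168, 1499 to 2770, 1002 to 2311 and 3698 to 4641, and 1 to 18 for the trend, 1 to 4 for any difference and 1 to 5 for 25 against 0.025 µM. The highest of these last 3 came without control 15, and the 18 trend genes then held SCD, FASN, DHCR7 and IDI1.

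The 33 named gene results gave 1671 comparisons of a result with an alternative fit. The fits were shared by the genes, so these are not separate checks. In 1531 the result stayed on the same side of the threshold, 108 lost the call, 32 gained it, and 0 changed direction. The 32 belong to SCD. THBS1 at 25 µM kept its call in each alternative run. At 0.025 µM its call with all libraries was lost when any 1 control was left out. With 3 or 4 libraries per dose and totals from 3.06 M counts, genes with few counts such as SLC6A12 have differences of wide error. The cause of the dependence on the end libraries was not tested.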

Other observations

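Genes outside the groups above were also called in the interior libraries. The metallothioneins MT1E and MT2A, which bind zinc and copper, were higher at 25 µM by 0.93 and 0.46 (adjusted p = 4.08e-05 and 0.0028, edgeR, n = 3 and 6), and MT1E held 145 to 356 CPM in interior controls and 388 to 617 CPM in interior DDE libraries. With all libraries MT1E was not called (adjusted p = 0.0511), and it was lower in end libraries by 1.20. Of 16 inflammatory genes 5 were lower and 1 higher at 25 µM in the interior, beside 9.64% and 9.59% of all genes, and 2 lower and 0 higher with all libraries, beside 4.22% and 3.56%. CXCL8, the neutrophil attractant, held 7.69 to 335 CPM in controls and 0.627 to 10.3 CPM in interior DDE libraries, while the end libraries held 110, 12.2, 129 and 32.7 CPM from 0.025 to 25 µM. NFKBIA, the inhibitor of NF-kB, was lower by 1.10, and ICAM1, an adhesion receptor for leukocytes, by 1.52. CSF3, the granulocyte growth factor, was the 1 higher gene, by 0.63.

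The controls numbered 13 to 16 and 9 to 12, compared as 2 groups of 4, differed in 0 genes by edgeR, with 652 at an unadjusted p under 0.05. Each group held an end library, and the fit used the spread of all 24 libraries. The 0 calls therefore do not show that the groups are alike. DESeq2 was not run on them.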
